A study of Mus musculus with 9 samples.

Results

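NF-kappaB is a family of dimeric transcription factors held inactive in the cytoplasm by IkappaB proteins and released when those inhibitors are degraded. The genes described here encode its 5 subunits (Nfkb1, Nfkb2, Rela, Rel and Relb), 4 IkappaB proteins (Nfkbia, Nfkbib, Nfkbie and Nfkbiz) and the feedback inhibitor A20 (Tnfaip3). They were taken by gene symbol, all 10 had a row among the 24391 gene rows of the deposited count table, and all 10 passed the low-count filter that left 12573 genes. In the canonical pathway, receptors of the TNF, interleukin-1 and Toll-like families activate a kinase complex that marks IkappaB-alpha for destruction and frees RelA and c-Rel dimers. In the non-canonical pathway the kinase NIK drives processing of p100, the Nfkb2 product, to p52, which pairs with RelB. Several inhibitors are themselves targets of NF-kappaB, so the pathway shuts itself off, and both arms have roles in blood cell development and in leukaemia.

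The libraries came from bone marrow of C57BL/6 mice aged 6 to 8 weeks that carried a leukaemia of AML1-ETO9a, a truncated variant of a leukaemic fusion transcription factor. Cells were sorted by surface CD43, a leukocyte sialoglycoprotein, and c-Kit, the stem cell factor receptor, into CD43++ckit+, CD43+ckit- and CD43-ckit- populations with 3 libraries each. All 9 libraries are leukaemic, with no healthy marrow among them. How the fusion was introduced, and whether each library stands for its own animal, is not given in the sources used here, so p-values reflect only how these samples scatter, and that scatter may be technical.

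Values are read counts scaled to library size (CPM, with TMM factors), total counts ran from 17966197 to 31781746 per library, and log2 fold changes are the first-named population over the second. The quasi-likelihood test of edgeR gave p-values, adjusted over all tested genes by the Benjamini-Hochberg method (BH-adjusted p), and a gene was called below 0.05. The genes of the sorted proteins, Kit and Spn (CD43), were both higher in CD43++ckit+ cells than in either other population, whereas Spn was not called between CD43+ckit- and CD43-ckit- (0.45, BH-adjusted p = 0.269). Kit was lower in CD43+ckit- cells than in CD43-ckit- cells (-1.11, BH-adjusted p = 0.0379, libraries overlapping), although both were sorted as ckit-. The summed CPM of 8 erythroid markers was 1065 to 1834 in CD43++ckit+ cells, 12788 to 15251 in CD43+ckit- cells and 33422 to 52043 in CD43-ckit- cells, and all 8 were lower in CD43++ckit+ cells than in either other population. The sum of 10 neutrophil markers differed within populations: 355, 95.5 and 6057 CPM in libraries 1 to 3 of CD43++ckit+, 487, 3707 and 2955 in CD43+ckit- cells and 3840, 16584 and 17222 in CD43-ckit- cells. Library 3 of CD43++ckit+ and library 1 of each other population correlated least with the other 2 libraries of their group. No gene of any marker list was at 0 in all 3 libraries of a population.

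Promoter sequences are shown only where they held a match to the kappaB motif, through which NF-kappaB acts on some of its own genes. The levels of all 10 genes are followed below. On GRCm38 the genes without a sequence below lie at chr3:135584655-135691547 (Nfkb1), chr19:5637483-5648130 (Rela), chr7:19606217-19629438 (Relb), chr7:28758251-28767512 (Nfkbib) and chr16:55811375-55838899 (Nfkbiz) in GENCODE vM21. RefSeq promoter windows on GRCm38.p6 were found for 7 of the 10 genes, and the 250 bases before each annotated start were searched on both strands for the 10-base kappaB consensus. Of these 7 genes, 5 held a match (Nfkb2, Rel, Nfkbia, Nfkbie and Tnfaip3) and Rela and Nfkbib held none. Of all 27025 genes with a window, 8.23% held a match. Capitals mark matched bases, overlapping matches are joined, and each sequence runs 5′ to 3′ up to the base before the start:
Nfkbia, chr12:55492648-55492897, minus strand: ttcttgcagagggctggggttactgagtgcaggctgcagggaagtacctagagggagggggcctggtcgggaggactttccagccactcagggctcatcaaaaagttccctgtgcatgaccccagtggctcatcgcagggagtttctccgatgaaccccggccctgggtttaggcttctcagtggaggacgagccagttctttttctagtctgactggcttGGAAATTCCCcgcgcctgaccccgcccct
Nfkbie, chr17:45555450-45555699, plus strand: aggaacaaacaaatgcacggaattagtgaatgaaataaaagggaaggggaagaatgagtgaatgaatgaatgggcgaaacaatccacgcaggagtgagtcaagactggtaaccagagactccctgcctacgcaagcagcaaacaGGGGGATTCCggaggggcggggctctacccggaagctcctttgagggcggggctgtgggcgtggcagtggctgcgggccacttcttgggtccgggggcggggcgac
Rel, chr11:23770970-23771219, minus strand: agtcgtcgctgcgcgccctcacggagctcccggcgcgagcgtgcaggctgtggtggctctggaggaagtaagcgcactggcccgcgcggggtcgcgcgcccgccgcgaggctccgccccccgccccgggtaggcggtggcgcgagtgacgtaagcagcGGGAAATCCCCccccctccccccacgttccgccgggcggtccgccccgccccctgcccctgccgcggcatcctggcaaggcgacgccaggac

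The windows of Nfkb2 and Tnfaip3 overlap exons of other isoforms, so 30 bases around each match at their first annotated start are shown, with the distance of the first capital before that start. Nfkb2 has 2 more matches, each at a further start. A match is a description of letters and not evidence of binding:
Nfkb2, chr19:46304689-46304718, plus strand, 39 bases before: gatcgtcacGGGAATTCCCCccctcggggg
Nfkb2, chr19:46304716-46304745, plus strand, 11 bases before: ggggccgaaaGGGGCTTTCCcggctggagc
Tnfaip3, chr10:19015516-19015545, minus strand, 125 bases before: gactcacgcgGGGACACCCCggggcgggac
Tnfaip3, chr10:19015403-19015432, minus strand, 12 bases before: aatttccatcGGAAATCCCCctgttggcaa

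Most of the 10 genes were lowest in CD43++ckit+ cells and highest in CD43-ckit- cells, and Nfkb1 was the only one called higher in CD43++ckit+ cells with TMM scaling and all libraries (Nfkbib also was, against CD43-ckit-, with library totals, and Tnfaip3, against CD43+ckit-, after dropping the least correlated library in each population). Against CD43-ckit-, 9 were called (67.4% of all tested genes): 8 of the 10 were lower in CD43++ckit+ cells (27.7%), 1 was higher (39.7%), and Tnfaip3 was not called. Against CD43+ckit-, 5 were called (39.8% of all tested genes): 4 were lower in CD43++ckit+ cells (20.1%), namely Nfkb2, Relb, Nfkbib and Nfkbiz, and 1 was higher (19.7%). Between CD43+ckit- and CD43-ckit-, 5 were called (51.9% of all tested genes), of which 5 were lower in CD43+ckit- cells (20.9%) and 0 were higher (31.0%). The median log2 fold change over the 10 genes was -0.60, -1.54 and -0.72 for CD43++ckit+ versus CD43+ckit-, CD43++ckit+ versus CD43-ckit- and CD43+ckit- versus CD43-ckit-, beside 0.01, 0.19 and 0.13 over all tested genes. In the joint test of the 3 populations 9 of the 10 were called, as were 74.8% of all tested genes. Each pair of comparisons shares a population, so the 3 are not independent.

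The scaling bears on the smaller of these changes. With library totals in place of TMM factors (0.589 to 1.41), log2 fold changes of all genes moved by a median of 0.26 for CD43++ckit+ versus CD43+ckit-, 0.91 for CD43++ckit+ versus CD43-ckit- and 0.64 for CD43+ckit- versus CD43-ckit-. Calls that were higher in the first population made up 58.9% with TMM, 49.5% with DESeq2 size factors and 82.2% with library totals for CD43++ckit+ versus CD43-ckit-. For CD43+ckit- versus CD43-ckit- these shares were 59.7%, 45.8% and 85.2%, and for CD43++ckit+ versus CD43+ckit- they were 49.4%, 45.0% and 67.0%. Relative to the median of all genes, the 10 genes changed almost equally under both scalings: Rela was -1.06 with TMM and -1.04 with library totals for CD43++ckit+ versus CD43-ckit-, and Nfkbib -0.54 and -0.53. A change of scaling moves all genes of a comparison by nearly the same amount, so this near equality follows from the arithmetic. It does not bear on whether the calls hold.

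**Figure D1:**
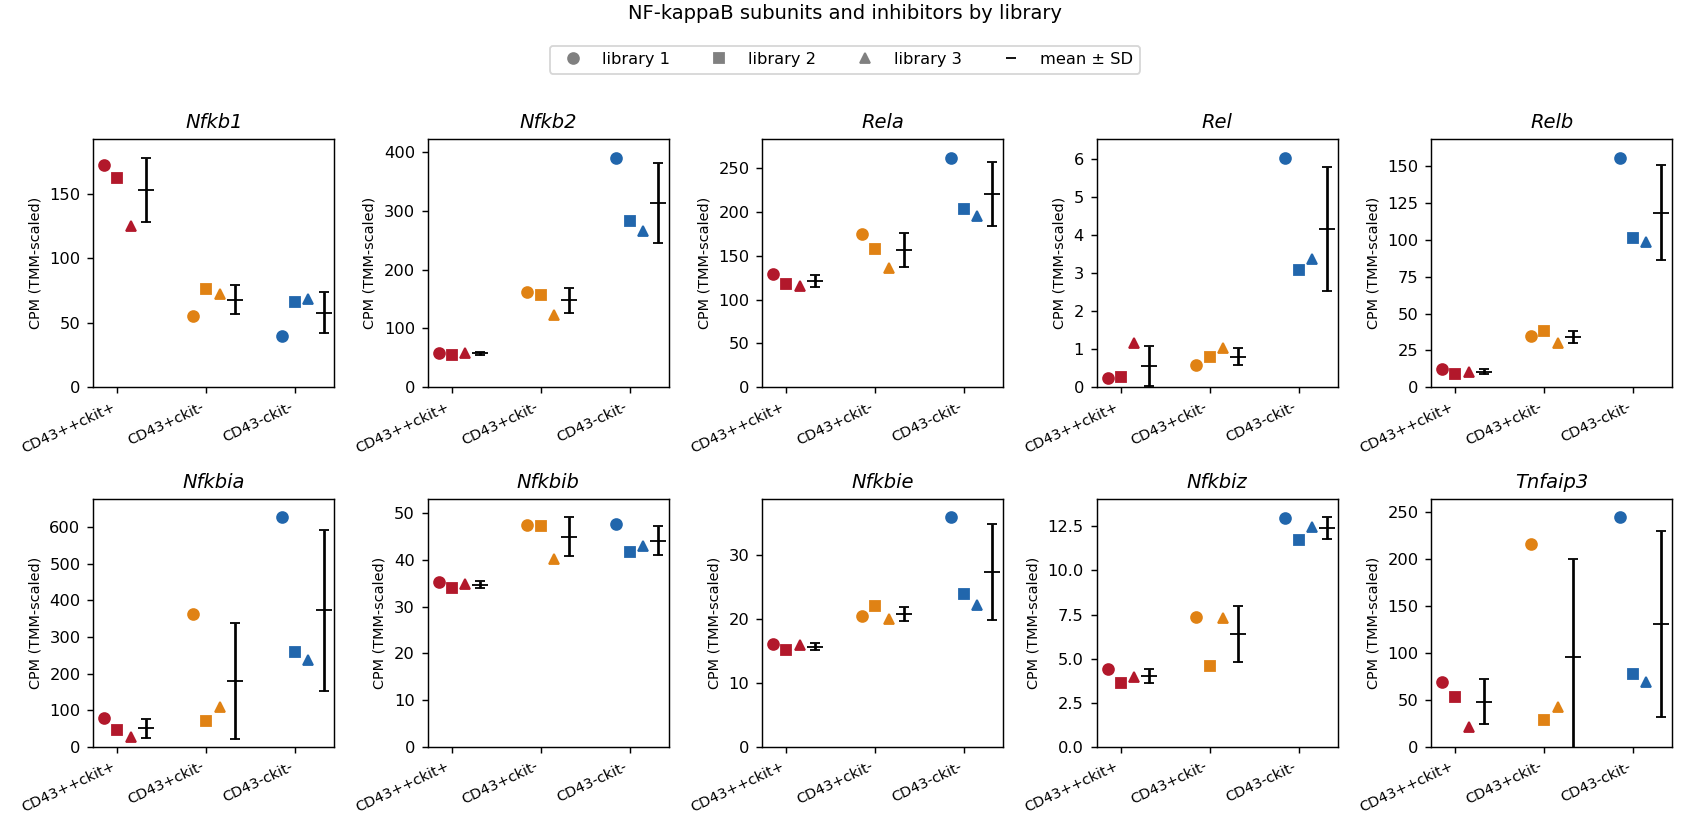
CPM (TMM-scaled) of each gene in each library, with the populations on the horizontal axis in separate panels with their own linear axes. Symbols show library 1, 2 and 3, and bars the mean ± SD (n = 3, cut off at 0): Nfkb1 is highest in CD43++ckit+ cells, Nfkb2 and Relb are highest in CD43-ckit- cells, and Nfkbia and Tnfaip3 stand high in library 1 of CD43+ckit- and CD43-ckit-.

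The 2 precursor genes, Nfkb1 and Nfkb2, differed in opposite directions. Nfkb1 encodes p105, the precursor of p50, the usual partner of RelA. It stood at 172, 162 and 125 CPM in CD43++ckit+ cells, at 55.3, 76.5 and 72.0 CPM in CD43+ckit- cells and at 39.6, 65.8 and 68.2 CPM in CD43-ckit- cells. Every CD43++ckit+ library lay above every library of the other populations, which overlapped each other. Nfkb1 was higher in CD43++ckit+ cells than in CD43+ckit- cells (log2 fold change 1.17 ± 0.23 SE, BH-adjusted p = 0.00379) and than in CD43-ckit- cells (1.40 ± 0.23, BH-adjusted p = 0.000636; 2.27 with library totals). Between CD43+ckit- and CD43-ckit- the difference was 0.23 ± 0.23 (BH-adjusted p = 0.403; 0.84 and called with library totals, BH-adjusted p = 0.0269).

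Nfkb2 encodes p100, the precursor of p52 and itself an inhibitor of RelB. It stood at 58.8, 54.9 and 58.1 CPM in CD43++ckit+ cells, at 162, 157 and 123 CPM in CD43+ckit- cells and at 390.4, 283 and 265 CPM in CD43-ckit- cells. The 3 populations did not overlap. Nfkb2 was lower in CD43++ckit+ cells than in CD43+ckit- cells (-1.37 ± 0.17, BH-adjusted p = 0.000617) and than in CD43-ckit- cells (-2.45 ± 0.18, BH-adjusted p = 7.57e-06; -1.51 with library totals). It was also lower in CD43+ckit- cells than in CD43-ckit- cells (-1.08 ± 0.17, BH-adjusted p = 0.00108; -0.42 with library totals). In the GENCODE vM21 annotation 830 of its 4221 exonic bases lie under exons of genes on the opposite strand, and since strand handling is not stated those reads cannot be told apart.

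Relb, the non-canonical subunit that pairs with p52, had the log2 fold change of largest size among the 10 genes with TMM scaling and all libraries (Nfkbia reached -4.33 with a neutrophil covariate, and Rel -4.01 without library 3 of CD43++ckit+). It stood at 12.2, 9.11 and 10.3 CPM in CD43++ckit+ cells, at 34.7, 38.1 and 30.0 CPM in CD43+ckit- cells and at 156, 101 and 98.3 CPM in CD43-ckit- cells. As with Nfkb2, the populations did not overlap. Relb was lower in CD43++ckit+ cells than in CD43+ckit- cells (-1.70 ± 0.21, BH-adjusted p = 0.000550) and than in CD43-ckit- cells (-3.49 ± 0.22, BH-adjusted p = 3.53e-06). It was lower in CD43+ckit- cells than in CD43-ckit- cells as well (-1.79 ± 0.21, BH-adjusted p = 0.000252; -1.11 with library totals).

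Rela encodes p65, the main activating subunit of the canonical pathway, and its range was narrower. It stood at 129.7, 118 and 116 CPM in CD43++ckit+ cells, at 175, 158 and 136 CPM in CD43+ckit- cells and at 262, 203 and 196 CPM in CD43-ckit- cells. The populations did not overlap, in the same order as for Nfkb2. Rela was lower in CD43++ckit+ cells than in CD43-ckit- cells (-0.86 ± 0.15, BH-adjusted p = 0.000884) and lower in CD43+ckit- cells than in CD43-ckit- cells (-0.49 ± 0.15, BH-adjusted p = 0.0225). With library totals these values were 0.07 and 0.17 (BH-adjusted p = 0.520 and 0.149), and the second call did not hold without CD43+ckit- library 3 (-0.39, BH-adjusted p = 0.0980) and when no low-count filter was used (-0.39, BH-adjusted p = 0.0708). For CD43++ckit+ versus CD43+ckit- the value was -0.37 ± 0.15 (BH-adjusted p = 0.0801). That passed the threshold without library 1 of CD43-ckit- (BH-adjusted p = 0.0246), with DESeq2 size factors (0.0409) or its Wald test (0.0128), in a fit of only these populations (0.0359), and after adding the mean of the neutrophil list as a covariate (0.0303).

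Rel encodes c-Rel, a subunit known for its roles in lymphocytes, and was close to the detection limit. Its reads numbered 9, 10 and 52 in CD43++ckit+ cells, 17, 24 and 32 in CD43+ckit- cells and 77, 47 and 47 in CD43-ckit- cells. In CPM these were 0.230, 0.274 and 1.16 in CD43++ckit+ cells, 0.572, 0.805 and 1.03 in CD43+ckit- cells and 6.05, 3.08 and 3.37 in CD43-ckit- cells. Every CD43-ckit- library lay above all others. Rel was lower in CD43++ckit+ cells than in CD43-ckit- cells (-2.88 ± 0.64, BH-adjusted p = 0.00341; -1.88 with library totals) and lower in CD43+ckit- cells than in CD43-ckit- cells (-2.37 ± 0.63, BH-adjusted p = 0.0128). For CD43++ckit+ versus CD43+ckit- the value was -0.51 ± 0.62 (BH-adjusted p = 0.560). Without library 3 of CD43++ckit+ it was -1.65 and called (BH-adjusted p = 0.0202), and the value against CD43-ckit- was -4.01. Without library 1 of CD43++ckit+ the value against CD43+ckit- was -0.15 (BH-adjusted p = 0.891). Like Rel, markers of other cells were highest in CD43-ckit- cells: the summed CPM of 8 B cell genes was 7.24, 3.56 and 24 in CD43++ckit+ cells, 14.2, 43.6 and 29.6 in CD43+ckit- cells and 226, 81.8 and 105 in CD43-ckit- cells. All 8 B cell genes were lower in CD43++ckit+ cells than in CD43-ckit- cells, and 5 were lower in CD43+ckit- cells than in CD43-ckit- cells. In these comparisons 27.7% and 20.9% of all tested genes were lower. Of 8 T and NK cell genes, 5 were lower in CD43++ckit+ cells than in CD43-ckit- cells, and 2 in CD43+ckit- cells than in CD43-ckit- cells. Their sums were 1.07 to 20.1 CPM in CD43++ckit+ cells, 4.98 to 8.55 in CD43+ckit- cells and 24.4, 38.4 and 36.1 in CD43-ckit- cells. Within CD43-ckit- this sum was lowest in library 1, where Rel and the B cell sum were highest. In CD43++ckit+ cells Rel and both sums were highest in library 3. In CD43+ckit- cells Rel and these sums were highest in different libraries. The part of these cell types in the Rel values was not tested, and in these bulk libraries fewer cells of a type and less RNA per cell cannot be told apart.

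To set subunits beside each other, CPM was divided by the annotated exon length of each gene. On this per-kb scale Rela averaged 44.7 ± 2.72 CPM per kb in CD43++ckit+ cells, 57.7 ± 7.28 in CD43+ckit- cells and 81.1 ± 13.4 in CD43-ckit- cells (SD, n = 3 each), and Rel 0.0743 ± 0.0704, 0.107 ± 0.0304 and 0.558 ± 0.219 in the same order. Rel was thus the lowest subunit in all 9 libraries. The level of Nfkb2 relative to Nfkb1 per kb was 0.333, 0.331 and 0.454 in CD43++ckit+ cells, 2.87, 2.01 and 1.68 in CD43+ckit- cells and 9.63, 4.2 and 3.80 in CD43-ckit- cells. Nfkb1 was thus the higher of the 2 in each CD43++ckit+ library and Nfkb2 in each library of the other populations. The ratio of Relb to Rela was 0.115, 0.0945 and 0.110 in CD43++ckit+ cells, 0.243, 0.296 and 0.271 in CD43+ckit- cells and 0.730, 0.611 and 0.618 in CD43-ckit- cells. Neither ratio overlapped between populations. Scaling of the libraries cancels in these ratios, which were not tested, and the lengths come from GENCODE vM21 and not from the authors' annotation.

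**Figure D2:**
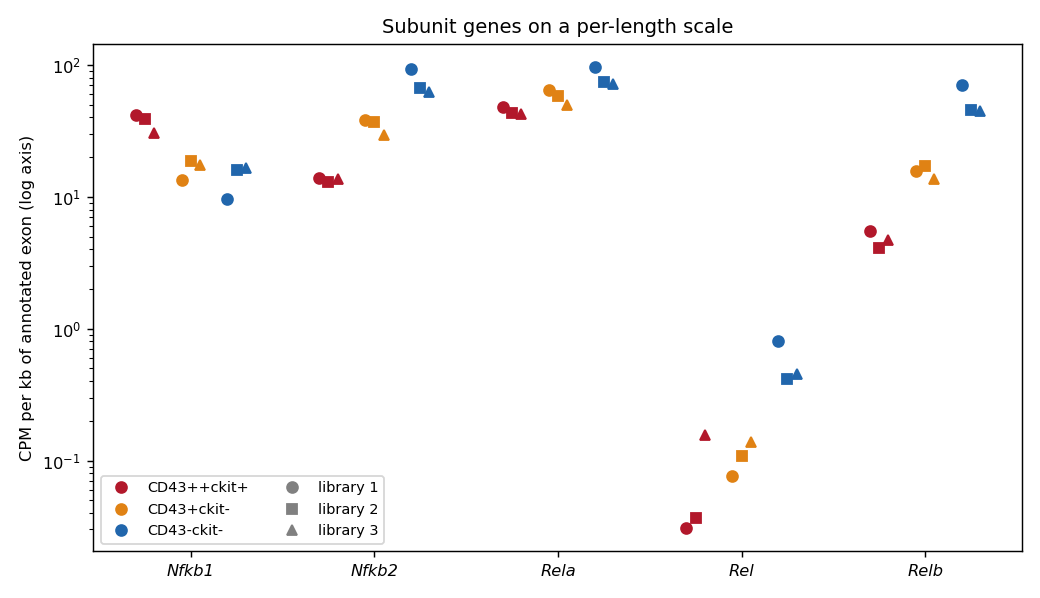
CPM per kb of annotated exon (log axis) of the 5 subunit genes, one symbol per library, coloured by population. Nfkb1 is highest in CD43++ckit+ cells and Nfkb2 and Relb in CD43-ckit- cells, Rela stays between 42.6 and 96.5 CPM per kb, and Rel is below 1 in every library.

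Nfkbia, which encodes IkappaB-alpha, the inhibitor that is degraded and remade most rapidly, varied widely between libraries of the same population. It stood at 78.5, 45.2 and 27.0 CPM in CD43++ckit+ cells, at 362, 71.5 and 107 CPM in CD43+ckit- cells and at 627, 258 and 236 CPM in CD43-ckit- cells. All CD43-ckit- libraries lay above all CD43++ckit+ libraries, and CD43+ckit- overlapped both. Nfkbia was lower in CD43++ckit+ cells than in CD43-ckit- cells (-2.89 ± 0.73, BH-adjusted p = 0.00792). The value was -1.93 with library totals and -2.29 without library 1 of CD43-ckit-, and the call held (BH-adjusted p = 0.0171 and 0.0291). Against CD43+ckit- the value was -1.84 ± 0.70 (BH-adjusted p = 0.0692), and it passed without library 2 of CD43+ckit- (-2.18, BH-adjusted p = 0.0402) and in DESeq2's Wald test (-1.88, BH-adjusted p = 0.0380). It shrank to -0.83 without library 1 of CD43+ckit- (BH-adjusted p = 0.298) and to -0.54 after dropping the least correlated library in each population (BH-adjusted p = 0.273). For CD43+ckit- versus CD43-ckit- it was -1.05 ± 0.69 (BH-adjusted p = 0.218). Same-numbered libraries of these 2 populations deviate together, but for libraries 2 and 3 crossed numbers correlate about as well (0.34 and 0.35) as matched ones (0.37 and 0.30). Pairing by number is therefore not established. With the replicate number as a block in a fit of these 2 populations the value was -1.32 and called (BH-adjusted p = 1.01e-10). It was also called without library 1 of CD43+ckit- (-2.05, BH-adjusted p = 0.0311), but shrank to -0.44 without library 1 of CD43-ckit- (BH-adjusted p = 0.623) and to -0.35 with library totals (BH-adjusted p = 0.608).

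Tnfaip3, the ubiquitin-editing enzyme A20 that ends signalling from TNF and Toll-like receptors, varied in the same libraries. It stood at 69.2, 53.5 and 21.5 CPM in CD43++ckit+ cells, at 216, 28.3 and 42.9 CPM in CD43+ckit- cells and at 245, 77.8 and 68.9 CPM in CD43-ckit- cells. The populations overlapped in every comparison. The log2 fold changes were -1.0 ± 0.85 for CD43++ckit+ versus CD43+ckit- (BH-adjusted p = 0.398), -1.44 ± 0.86 for CD43++ckit+ versus CD43-ckit- (0.163) and -0.44 ± 0.84 for CD43+ckit- versus CD43-ckit- (0.669). Without library 1 of CD43+ckit- the first was 0.43 (BH-adjusted p = 0.687), and without library 1 of CD43-ckit- the third was 0.40 (0.726) and the second -0.60 (0.562). With the replicate number as a block in a fit of CD43+ckit- and CD43-ckit- the third was -0.82 and called (BH-adjusted p = 9.80e-06). With library totals the second was -0.46 (BH-adjusted p = 0.587) and the third 0.27 (BH-adjusted p = 0.753).

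Library 1 was the highest of its population for Nfkbia and Tnfaip3 in all 3 populations. Nfkbia in library 1 stood at 2.17, 4.05 and 2.54 times the mean of the other 2 libraries in CD43++ckit+, CD43+ckit- and CD43-ckit- cells, and Tnfaip3 at 1.85, 6.07 and 3.34 times. The pattern was noticed in these values and looked up for the other genes afterwards. Library 1 was highest in each population for 6 of the 10 genes (Nfkb2, Rela, Nfkbia, Nfkbib, Nfkbiz and Tnfaip3) and for 9.20% of all tested genes. Nfkbia was above 1.5 times both other libraries in each population, which held for 0.0716% of all tested genes, 9 of 12573. Neutrophil markers went the other way in CD43+ckit- and CD43-ckit- cells, where their sum was lowest in library 1. The mean log2 CPM of the neutrophil list spanned 2.44 to 8.13 within CD43++ckit+ but 7.50 to 9.84 within CD43-ckit-. These ranges barely meet, so this mean is partly tied to population. Fits that use it as a covariate depend on the fitted slope. Whether their values are what remains without neutrophil RNA was not tested. With the mean of the neutrophil list as a covariate Nfkbia was lower in CD43++ckit+ cells than in CD43+ckit- cells (-2.21, BH-adjusted p = 0.000971) and than in CD43-ckit- cells (-4.33, BH-adjusted p = 5.87e-05), and lower in CD43+ckit- cells than in CD43-ckit- cells (-2.12, BH-adjusted p = 0.00267). Tnfaip3 was then lower in the same 3 comparisons (-1.41, -3.31 and -1.90; BH-adjusted p = 0.0141, 0.000401 and 0.00742). After dropping the least correlated library in each population, Tnfaip3 was instead higher in CD43++ckit+ cells than in CD43+ckit- cells (0.78, BH-adjusted p = 0.00421), and lower in CD43+ckit- cells than in CD43-ckit- cells (-1.03, BH-adjusted p = 0.000765).

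**Figure D3:**
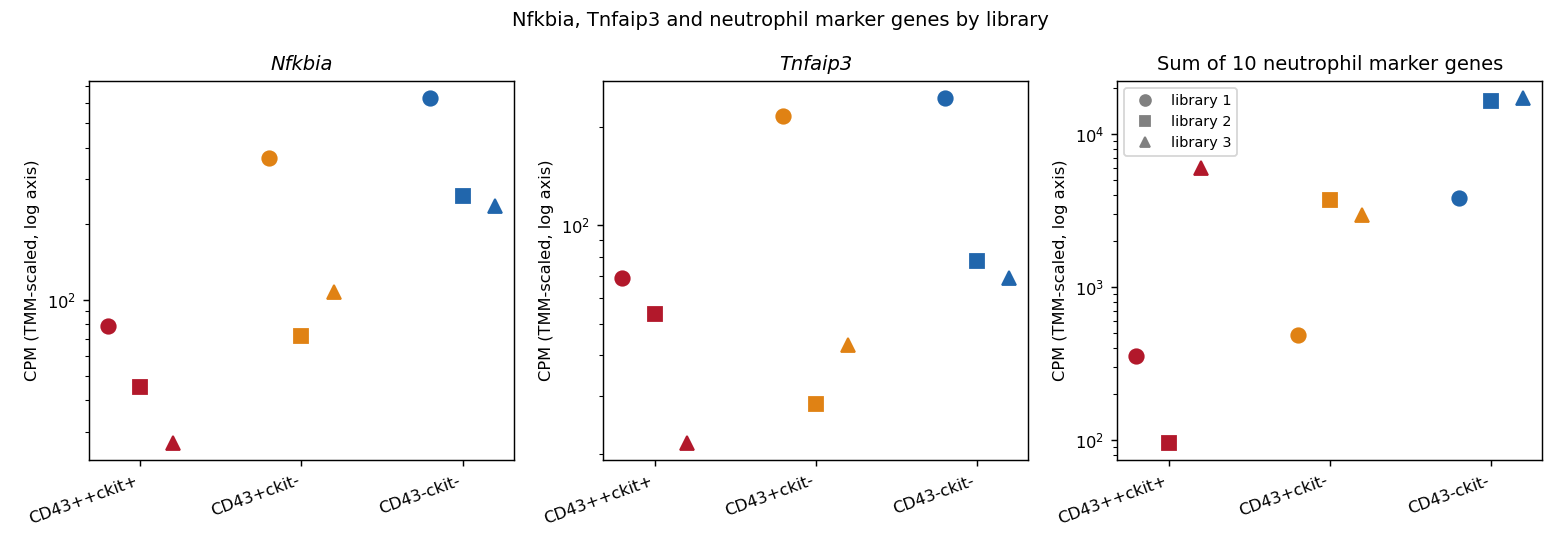
CPM (log axis) of Nfkbia, of Tnfaip3 and of the sum of 10 neutrophil marker genes in each library of the 3 populations. Library 1 (circles) is the highest of its population for both genes, while its neutrophil sum is the lowest in CD43+ckit- cells (487 CPM) and CD43-ckit- cells (3840 CPM) but not in CD43++ckit+ cells.

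The other IkappaB genes moved less and were steadier between libraries. Nfkbib, which encodes IkappaB-beta, stood at 35.4, 34.0 and 34.9 CPM in CD43++ckit+ cells, at 47.6, 47.3 and 40.3 CPM in CD43+ckit- cells and at 47.6, 41.7 and 43.1 CPM in CD43-ckit- cells. CD43++ckit+ lay below both other populations, which overlapped. Nfkbib was lower in CD43++ckit+ cells than in CD43+ckit- cells (-0.37 ± 0.12, BH-adjusted p = 0.0298) and than in CD43-ckit- cells (-0.34 ± 0.12, BH-adjusted p = 0.0258), while CD43+ckit- versus CD43-ckit- gave 0.03 ± 0.12 (BH-adjusted p = 0.841; 0.68 and called with library totals, BH-adjusted p = 0.00112). The first call was lost without any one of the CD43++ckit+ libraries or library 1 or 2 of CD43+ckit- (BH-adjusted p from 0.0534 to 0.118). The second was lost without any one of the CD43++ckit+ libraries or library 1 of CD43-ckit- (0.0538 to 0.109). With library totals the first was -0.10 (BH-adjusted p = 0.532) and the second 0.58 and called higher (0.00191), while without a low-count filter neither was called (0.0712 and 0.188). The replicate number as a block lost the first (0.0572 over all libraries and 0.113 with only the populations compared). The second stayed called in these fits (0.0469 and 0.0426). With DESeq2 size factors the second was -0.58 (BH-adjusted p = 0.00157), and with the neutrophil covariate it was not called (-0.40, BH-adjusted p = 0.0670). An exon of Ccer2 on the opposite strand covers 314 of its 2127 exonic bases.

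Nfkbie, which encodes IkappaB-epsilon, stood at 16.1, 15.1 and 15.9 CPM in CD43++ckit+ cells, at 20.4, 22.0 and 19.97 CPM in CD43+ckit- cells and at 35.9, 24 and 22.1 CPM in CD43-ckit- cells. The populations did not overlap, though the highest CD43+ckit- library nearly met the lowest CD43-ckit- library. Nfkbie was lower in CD43++ckit+ cells than in CD43-ckit- cells (-0.80 ± 0.19, BH-adjusted p = 0.00424; 0.15 with library totals, BH-adjusted p = 0.370). CD43++ckit+ versus CD43+ckit- gave -0.41 ± 0.18 (BH-adjusted p = 0.111), and CD43+ckit- versus CD43-ckit- gave -0.39 ± 0.18 (BH-adjusted p = 0.0994). The first was called without library 1 of CD43-ckit- (BH-adjusted p = 0.0127), in a fit of only these populations (0.0259) and in DESeq2's Wald test (0.0451), while with library totals it was -0.14 (0.477). The CD43+ckit- versus CD43-ckit- value was called with the replicate number as a block (-0.42, BH-adjusted p = 0.0343), in DESeq2's Wald test (-0.58, BH-adjusted p = 0.00718) and with DESeq2 size factors (-0.59, BH-adjusted p = 0.0247). It shrank to -0.14 without library 1 of CD43-ckit- (BH-adjusted p = 0.336) and was 0.29 with library totals (BH-adjusted p = 0.110).

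Nfkbiz encodes IkappaB-zeta, a nuclear member of the family that acts on transcription of a subset of targets. It was low, at 4.40, 3.64 and 3.95 CPM in CD43++ckit+ cells, 7.36, 4.56 and 7.28 CPM in CD43+ckit- cells and 13, 11.7 and 12.5 CPM in CD43-ckit- cells. The populations did not overlap, and the CD43-ckit- libraries stood well above the rest. Nfkbiz was lower in CD43++ckit+ cells than in CD43-ckit- cells (-1.63 ± 0.23, BH-adjusted p = 0.000260; -0.72 with library totals) and lower in CD43+ckit- cells than in CD43-ckit- cells (-0.95 ± 0.22, BH-adjusted p = 0.00729; -0.30 with library totals, BH-adjusted p = 0.296). It was also lower in CD43++ckit+ cells than in CD43+ckit- cells (-0.68 ± 0.22, BH-adjusted p = 0.0382). That call was lost without any one of the CD43++ckit+ libraries, CD43+ckit- libraries 1 or 3, or CD43-ckit- libraries 2 or 3 (BH-adjusted p from 0.0563 to 0.133). It was also lost with library totals (-0.41, BH-adjusted p = 0.214), without a low-count filter (0.0637) and in a fit of only these populations (0.0704). The replicate number as a block lost it too (0.0525 over all libraries and 0.139 with only these populations).

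**Figure D4:**
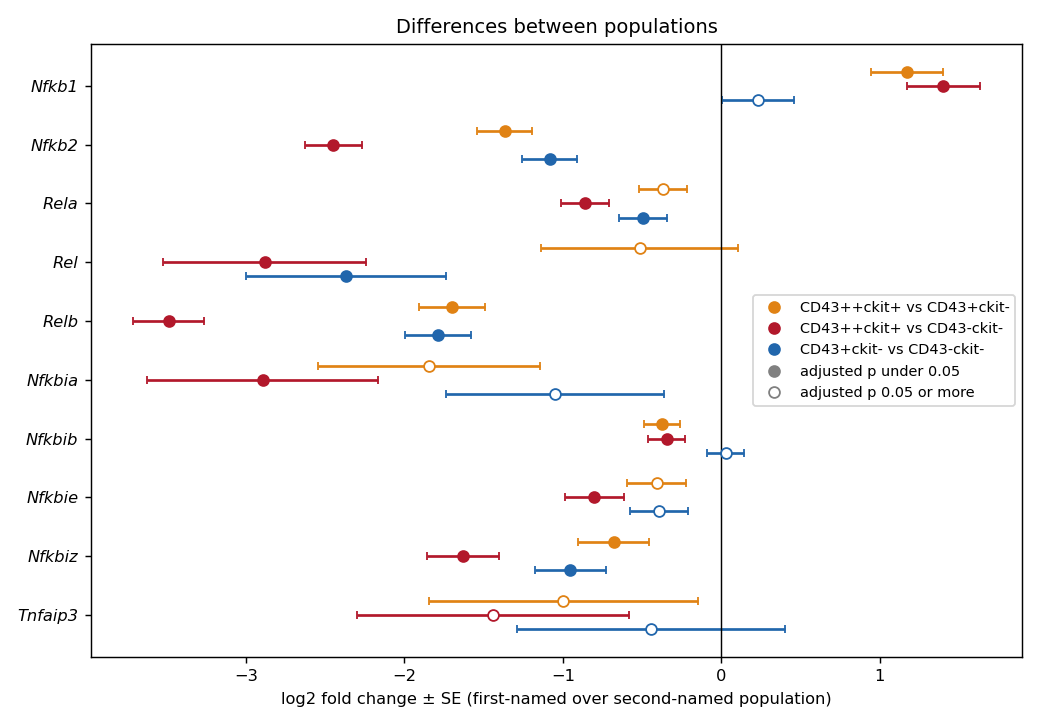
Log2 fold change ± SE of each gene in the 3 comparisons, the first-named population over the second, with filled symbols for an adjusted p under 0.05. Nfkb1 lies right of 0 in all 3, Relb reaches -3.49, and Nfkbia and Tnfaip3 have the widest bars along with Rel.

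Over the 10 genes, libraries of the compared populations did not overlap for 7 genes for CD43++ckit+ versus CD43+ckit- (55.5% of all tested genes), for 9 for CD43++ckit+ versus CD43-ckit- (73.2%) and for 6 for CD43+ckit- versus CD43-ckit- (64.3%). For the last comparison the count lies near the share of all genes.

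The remaining genes of the pathway, 91 in 5 lists of which 80 passed the filter, were more often called lower than higher in CD43++ckit+ cells with TMM scaling, with 45 and 8 of the 80 against CD43-ckit- and 21 and 6 against CD43+ckit-, and the split depended on the scaling as given for each list. Beside these and the counts of each list below, the shares of all tested genes called lower and higher were 27.7% and 39.7% for CD43++ckit+ versus CD43-ckit-, 20.1% and 19.7% for CD43++ckit+ versus CD43+ckit-, and 20.9% and 31.0% for CD43+ckit- versus CD43-ckit-. Ligand genes were sparse: 5 of 9 passed the filter, and 3 were lower in CD43++ckit+ cells than in CD43-ckit- cells and 0 higher (list median -2.0), while 0 were called either way with library totals. Il1b, which encodes interleukin-1 beta, averaged 1.26 ± 1.8, 4.66 ± 3.66 and 15.3 ± 8.49 CPM in CD43++ckit+, CD43+ckit- and CD43-ckit- cells (SD, n = 3 each), and was lower in CD43++ckit+ cells than in CD43-ckit- cells (-3.59, BH-adjusted p = 0.0419). Ltb, which encodes lymphotoxin beta, was also lower there (-2.76, BH-adjusted p = 0.0168), and Tnfsf12, which encodes TWEAK, was lower in CD43++ckit+ cells than in either other population (-1.08 and -1.03; BH-adjusted p = 0.0214 and 0.0165). Il1b and Ltb were higher in library 3 of CD43++ckit+ than in its libraries 1 and 2 (3.33 against 0.333 and 0.109 CPM for Il1b). So were the summed markers of neutrophils and of B, T and NK, monocyte and macrophage, dendritic and erythroid cells. Those of mast cells and basophils were not. The part of RNA from these cell types in these values was not tested.

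Of 12 tested receptor genes, 6 were lower and 1 higher in CD43++ckit+ cells than in CD43-ckit- cells (list median -2.16), and 2 were lower and 1 higher than in CD43+ckit- cells. With library totals 3 were lower and 1 higher against CD43-ckit-. Il1r1, the signalling receptor of interleukin-1, averaged 40.5 ± 2.57 CPM in CD43++ckit+ cells, 133 ± 16.3 in CD43+ckit- cells and 203 ± 88.7 in CD43-ckit- cells, and was lower in CD43++ckit+ cells than in either (-1.72, BH-adjusted p = 0.00129, and -2.33, BH-adjusted p = 0.000101). Its co-receptor gene Il1rap went the other way, at 11.3 ± 0.55, 5.04 ± 0.51 and 4.58 ± 1.11 CPM (1.16, BH-adjusted p = 0.00335, and 1.30, BH-adjusted p = 0.000823). Tnfrsf13c, which encodes the BAFF receptor, was lower in CD43++ckit+ cells than in CD43+ckit- and CD43-ckit- cells (-2.96 and -3.25; BH-adjusted p = 0.00138 and 0.000304). Ltbr, the lymphotoxin beta receptor, was not called in any comparison (-1.58 for CD43++ckit+ versus CD43-ckit-, BH-adjusted p = 0.0926).

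Among 28 adaptor and kinase genes, directions were mixed. In CD43++ckit+, 2 were higher and 11 lower than in CD43+ckit- cells, and 4 were higher and 13 lower than in CD43-ckit- cells, with list medians of -0.26 and -0.35. In CD43+ckit- cells, 8 were higher and 7 lower against CD43-ckit- (list median -0.09), and 19 and 1 with library totals. The direction turned with library totals against CD43-ckit-, where 17 were higher and 3 lower. Bcl10, an adaptor that links antigen receptors to the IkappaB kinase, averaged 23.7 ± 2.35, 42.4 ± 2.18 and 163 ± 29.9 CPM in CD43++ckit+, CD43+ckit- and CD43-ckit- cells, and was lower in CD43++ckit+ cells than in CD43-ckit- cells (-2.78, BH-adjusted p = 2.22e-06). Irak2, a kinase of interleukin-1 and Toll-like receptor signalling, was lower in CD43++ckit+ cells than in CD43+ckit- and CD43-ckit- cells (-1.34 and -1.53; BH-adjusted p = 0.000342 and 2.56e-05), as was Sharpin, a subunit of the linear ubiquitin ligase complex (-0.71 and -0.93; BH-adjusted p = 0.00181 and 0.000163). Traf3, which keeps NIK low and so restrains the non-canonical pathway, was higher in CD43++ckit+ cells, at 63.4 ± 9.75 CPM against 26.0 ± 5.24 in CD43+ckit- cells and 27.8 ± 0.48 in CD43-ckit- cells (1.29 and 1.19; BH-adjusted p = 0.000827 and 0.000381).

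Of 15 tested genes of other inhibitors and feedback proteins, 8 were lower and 2 higher in CD43++ckit+ cells than in CD43-ckit- cells, and 10 were lower and 1 higher in CD43+ckit- cells than in CD43-ckit- cells, with list medians of -0.84 and -0.70. With library totals these counts were 5 lower and 6 higher, and 3 lower and 3 higher. Tnip1, an A20-binding inhibitor, averaged 40.4 ± 1.22, 74.0 ± 5.56 and 140.1 ± 31.6 CPM in CD43++ckit+, CD43+ckit- and CD43-ckit- cells, and was lower in CD43++ckit+ cells than in CD43-ckit- cells (-1.79, BH-adjusted p = 2.78e-05). Zc3h12a, an RNase that degrades inflammatory transcripts (-1.93, BH-adjusted p = 7.82e-05), and Tax1bp1, another partner of A20 (-2.73, BH-adjusted p = 0.000123), were also lower there. Nfkbid, a nuclear IkappaB protein, was lower in CD43++ckit+ cells than in CD43-ckit- cells (-2.07, BH-adjusted p = 3.48e-05) and differed by -0.07 from CD43+ckit- (BH-adjusted p = 0.796).

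Of 20 tested target genes, 15 were lower and 1 higher in CD43++ckit+ cells than in CD43-ckit- cells (list median -2.27), 4 were lower and 2 higher in CD43++ckit+ cells than in CD43+ckit- cells (-0.52), and 11 were lower and 0 higher in CD43+ckit- cells than in CD43-ckit- cells (-1.84). With library totals 8 were lower and 4 higher in CD43++ckit+ cells against CD43-ckit-, 4 and 4 against CD43+ckit-, and 4 and 1 in CD43+ckit- cells against CD43-ckit-. Icam1, an adhesion molecule, stood at 32.2, 29.4 and 23.8 CPM in CD43++ckit+ cells, at 63.7, 50.6 and 43.7 CPM in CD43+ckit- cells and at 134, 99.5 and 97.3 CPM in CD43-ckit- cells, without overlap (CD43++ckit+ versus CD43-ckit- -1.95, BH-adjusted p = 5.10e-05). Ier3, a stress-inducible gene, averaged 13.3 ± 5.44, 17.6 ± 1.15 and 86.9 ± 18.1 CPM in CD43++ckit+, CD43+ckit- and CD43-ckit- cells (-2.71, BH-adjusted p = 7.00e-05, for the first against the last). The chemokine gene Cxcl10 differed by -5.07 (BH-adjusted p = 0.000301) and Bcl2l1, which encodes BCL-XL, by -5.27 (BH-adjusted p = 1.90e-06) in that comparison. Bcl2l1 is also known for its expression in erythroid cells and Cxcl10 for its response to interferon. Monocyte and macrophage markers were also lower against CD43-ckit- cells: 9 of 10 were called lower in CD43+ckit- cells and 3 of 10 in CD43++ckit+ cells. For CD43++ckit+ versus CD43+ckit-, 1 of these markers was higher and 0 lower (list median 0.48). The summed CPM of these markers was 17.2 to 76.0 in CD43++ckit+ cells, 18.9 to 42.1 in CD43+ckit- cells and 128 to 158 in CD43-ckit- cells. Their part in the list values was not tested.

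**Figure D5:**
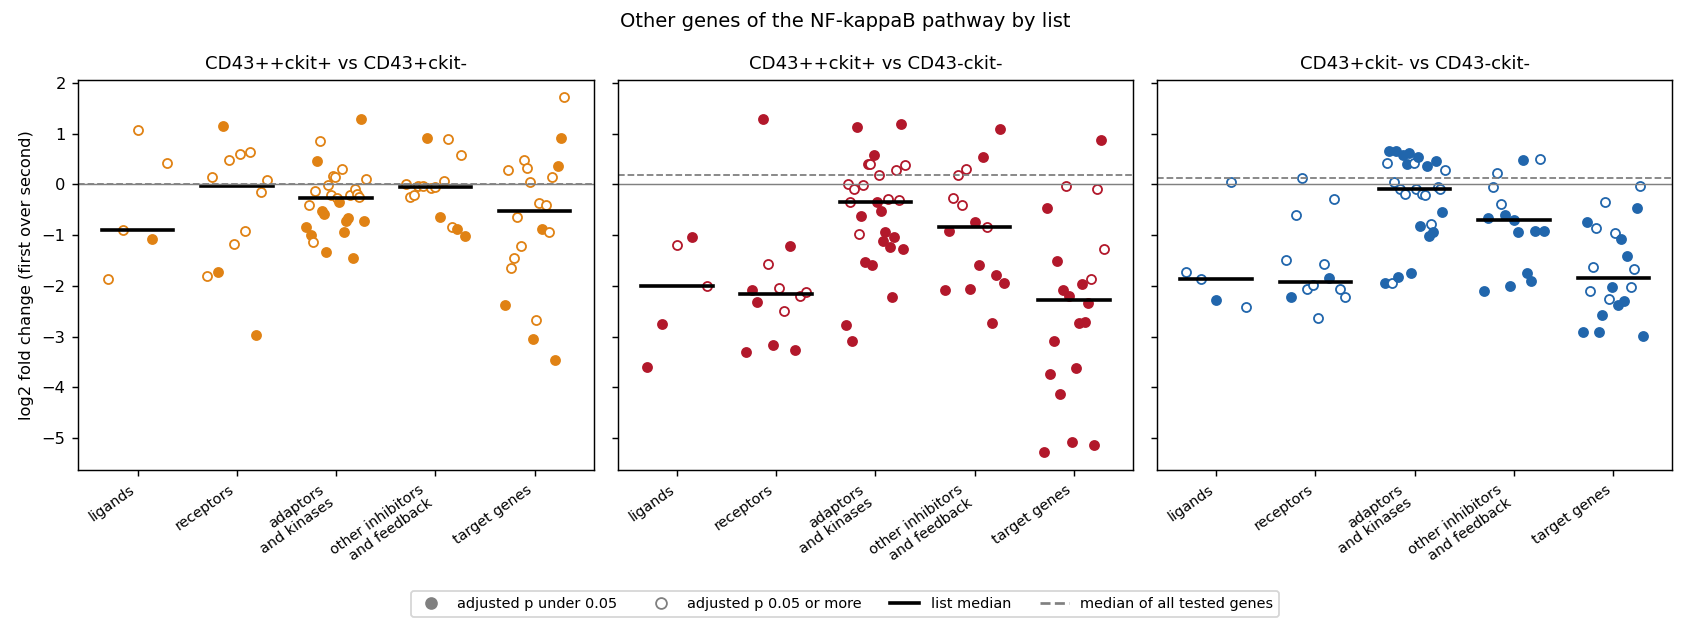
Log2 fold change of each tested gene of the 5 pathway lists in the 3 comparisons (filled: adjusted p under 0.05), with the list median as a black bar and the median of all tested genes dashed. Target genes lie mostly below 0 against CD43-ckit-, with medians of -2.27 for CD43++ckit+ and -1.84 for CD43+ckit-, while adaptors and kinases spread on both sides.

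For the 3 genes with the smallest joint p, the genes of nearest pattern were found by the root mean square difference of log2 CPM, each gene centred on its own mean over the 9 libraries, among 8300 genes. Nearest to Relb were Slc43a2, Rnf11 and St3gal5 (0.12, 0.13 and 0.14, against a median of 1.60 over all compared genes). Nearest to Nfkb2 were Fam53b, the haem transporter gene Slc48a1 and Sidt2 (0.07, 0.09 and 0.09, against 1.21). Nearest to Nfkbiz were Polg2, Ccpg1 and Ap4b1 (0.18, 0.19 and 0.19, against 0.94). This is a description of likeness over these libraries only.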

How the data were processed

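The deposited table holds raw read counts per gene symbol for 9 libraries, and the labels' protocols give 1 ug of input RNA and Illumina's TruSeq chemistry. Per the submitters' processing notes, which state no roles, the tools were edgeR, HTSeq, RSEM, TopHat2 2.0.4 and CASAVA 1.8, and the build was GRCh38, a human one, although the rows carry mouse symbols. The build and annotation of the counts, and strand handling, are therefore not stated in the labels or headers. Within populations, each pair of libraries differed by more than counting error (chi-square over its degrees of freedom 15.2 to 117).

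Low genes were removed with filterByExpr (min.count 10, min.total.count 15), and the rest scaled by TMM and fitted with edgeR 4.0.16 in R 4.3.3 as 3 group means over all 9 libraries (robust glmQLFit, glmQLFTest). Benjamini-Hochberg adjustment ran over all tested genes, with a threshold of 0.05. The SE is the log2 fold change divided by the square root of F. The fit was also run on simulated counts with known changes, as many up as down. That setting does not cover the dependence on scaling or the outlying libraries seen here. The 10 genes and all lists were chosen with earlier results of these data known. From each pathway list the text names up to 4 genes ranked by joint p whose average log2 CPM reaches 1. Promoter sequences are RefSeq's (GRCm38.p6) and exon lengths are from GENCODE vM21. Precision is limited by n = 3 per population and, for Rel, by few reads.

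Same-numbered libraries of CD43+ckit- and CD43-ckit- correlated in their deviations from the group means (0.53, 0.37 and 0.30). This passed the rule used (every pair over 0.1) but does not establish pairing by number. Libraries 2 and 3 were not told apart by number: CD43+ckit- 2 with CD43-ckit- 3 gave 0.34, and 3 with 2 gave 0.35. Same-numbered libraries of CD43++ckit+ did not pass the rule (0.45, -0.62 and 0.38 with CD43+ckit-, and 0.26, -0.32 and 0.25 with CD43-ckit-). The main fit held no replicate block in any comparison, so the replicate number enters only the alternatives. Alternatives were DESeq2 1.42.0, its size factors, library totals, no or a strict low-count filter (minimum count 50), 2 populations at a time, a replicate block, a neutrophil covariate and left-out libraries. The neutrophil covariate was itself uneven over the populations, so its fits do not separate the part of neutrophil RNA from that of population.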

Additional observations from a re-analysis of the deposited data

How the results depend on the processing

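Of 570 recomputed log2 fold changes of the 10 genes, 490 kept direction and call, and 17 turned direction, with or without a change of call. Of those that kept direction, 30 lost a call and 33 gained one. Nfkb2 and Relb kept direction and call in every comparison and alternative, and Nfkb1 did for both comparisons with CD43++ckit+. With library totals, CD43++ckit+ versus CD43-ckit- had 2 genes higher and 5 lower in place of 1 and 8, CD43+ckit- versus CD43-ckit- 2 and 3 in place of 0 and 5, and CD43++ckit+ versus CD43+ckit- 2 lower in place of 4. For the last comparison 7 were lower with DESeq2's Wald test, 2 without a low-count filter, 7 with the neutrophil covariate and 2 to 6 when 1 library was left out, and 2 were higher after dropping each population's least correlated library. The replicate block in a fit of CD43+ckit- and CD43-ckit- gave 8 genes lower in place of 5. For CD43++ckit+ the block gave 3 lower in place of 4 against CD43+ckit- and 9 in place of 8 against CD43-ckit-. Pairing by number is not established in any of these comparisons.

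Turned directions with library totals were Rela (0.070 for CD43++ckit+ and 0.17 for CD43+ckit-, each against CD43-ckit-), Nfkbie (0.15 and 0.29), Nfkbib (0.58 for CD43++ckit+ against CD43-ckit-) and Tnfaip3 (0.27 for CD43+ckit- against CD43-ckit-). Relative to the median of all genes these 6 values stayed below 0. That follows from the near-equal move of all genes and does not bear on the calls. Tnfaip3 turned to 0.78 for CD43++ckit+ versus CD43+ckit- without the least correlated libraries. Nfkbib for CD43+ckit- versus CD43-ckit-, 0.03 in the report, turned to -0.17 with DESeq2 size factors or its Wald test, -0.057 with the strict filter, -0.029 with only these populations, -0.031 with the replicate block, and -0.00578 with the neutrophil covariate. Leaving out 1 library, this value ranged from -0.065 to 0.12, Tnfaip3 from -1.38 to 0.43 for CD43++ckit+ versus CD43+ckit- and from -1.86 to 0.40 for CD43+ckit- versus CD43-ckit-. The causes were not tested. Of 570 recomputed list counts, 441 stayed within 1.5 times. Rel rests on 9 to 77 reads per library.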
